A study of Mus musculus with 10 samples.

Results

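Aggrecan, cartilage oligomeric matrix protein (COMP), the matrilins and link protein are secreted components of the cartilage matrix. The 8 genes described here are Acan, Comp, Matn1, Matn3, Matn4, Hapln1, Cnmd and Snorc. They were chosen by gene name for this shared place in cartilage from the 56748 genes of the count table. In cartilage, aggrecan carries chondroitin and keratan sulfate chains that hold water, and link protein, the product of Hapln1, fixes aggrecan to hyaluronan. COMP and the matrilins are adaptor proteins that bridge collagen fibrils, proteoglycans and each other. Cnmd encodes chondromodulin, a membrane-derived glycoprotein of cartilage that restrains blood vessel growth, and Snorc encodes a small transmembrane proteoglycan of chondrocytes.

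The 3xR line of mouse embryonic stem cells gave all 10 libraries, each made from poly(A) RNA of cells isolated by a reporter at day 14. The sample names show an eGFP reporter named for Col2a1 and a tdTomato reporter named for Prg4, and no other genotype is given. Cells positive for Col2a1-eGFP came from cultures with DMSO, a solvent, and gave 4 libraries with replicate numbers 1, 3, 4 and 5. Cells positive for Prg4-tdTomato came from cultures with DMSO (3 libraries, numbers 1, 3 and 5) or with Fsk (3 libraries, numbers 1, 4 and 5). Fsk is commonly short for forskolin, an activator of adenylyl cyclase, although the labels give the short form alone, with no dose or length of treatment. There is no eGFP+ library with Fsk, so the last of the 3 comparisons below changes reporter and treatment together. Nothing says that the libraries within a group were grown separately, so each p-value reflects the spread among these libraries alone, which may be technical.

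The libraries held 15355459 to 20408696 reads assigned to genes. Col2a1, the gene that names the eGFP reporter, stood at 838 to 2992 CPM (reads scaled to a common library size, with TMM scaling) in the eGFP+ libraries and at 82.05 to 390.1 in the tdTomato+ DMSO libraries, which the sort itself can set. Prg4, which names the other reporter, averaged 0.835 CPM in tdTomato+ DMSO cells and 1.01 in eGFP+ cells, so its transcript did not mark the tdTomato+ cells. Ribosomal RNA took 0.0484% to 6.48% of reads and mitochondrial transcripts 2.13% to 5.84%, with overlapping ranges in the groups. Levels are given as CPM in each library. Levels of different genes are compared only as CPM per kilobase of exon (the union of a gene's exons in GENCODE M21).

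Start regions of the genes were read from RefSeq's promoter table (GRCm38.p6, 250 bases before to 50 after a start in that table). It holds 7 windows for 6 of the 8 genes. Its starts can differ from the GENCODE gene starts given below. The Acan window ends at 79053275, before the GENCODE start of 79053483. The Hapln1 window begins at 89540386, inside a gene that starts at 89539796 in GENCODE. Comp and Snorc have no entry. The 4 windows below are shown because their genes span the range of behaviours in the results: Cnmd and Matn3 had at most 39 reads in any tdTomato+ library, while Acan and Hapln1 had at least 1433 in each tdTomato+ DMSO library. Capitals mark CG dinucleotides, and each sequence runs 5′ to 3′ on its gene's strand.
Cnmd, chr14:79662134-79662433, minus strand: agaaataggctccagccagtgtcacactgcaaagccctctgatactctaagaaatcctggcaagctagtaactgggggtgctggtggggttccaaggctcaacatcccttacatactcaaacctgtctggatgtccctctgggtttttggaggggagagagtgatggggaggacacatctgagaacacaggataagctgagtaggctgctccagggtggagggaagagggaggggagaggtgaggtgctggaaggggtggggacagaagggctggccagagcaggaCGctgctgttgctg
Matn3, chr12:8947679-8947978, plus strand: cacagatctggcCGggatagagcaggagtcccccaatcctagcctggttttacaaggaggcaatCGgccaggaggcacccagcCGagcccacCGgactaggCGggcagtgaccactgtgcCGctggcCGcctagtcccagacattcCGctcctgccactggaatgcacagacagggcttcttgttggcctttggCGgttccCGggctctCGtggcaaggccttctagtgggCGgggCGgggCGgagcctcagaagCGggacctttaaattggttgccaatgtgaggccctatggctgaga
Hapln1, chr13:89540386-89540685, plus strand: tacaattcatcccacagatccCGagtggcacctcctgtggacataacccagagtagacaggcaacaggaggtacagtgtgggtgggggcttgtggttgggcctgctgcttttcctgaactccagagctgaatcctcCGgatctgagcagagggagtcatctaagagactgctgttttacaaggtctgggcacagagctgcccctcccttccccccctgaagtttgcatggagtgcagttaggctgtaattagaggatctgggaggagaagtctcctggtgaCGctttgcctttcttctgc
Acan, chr7:79052976-79053275, plus strand: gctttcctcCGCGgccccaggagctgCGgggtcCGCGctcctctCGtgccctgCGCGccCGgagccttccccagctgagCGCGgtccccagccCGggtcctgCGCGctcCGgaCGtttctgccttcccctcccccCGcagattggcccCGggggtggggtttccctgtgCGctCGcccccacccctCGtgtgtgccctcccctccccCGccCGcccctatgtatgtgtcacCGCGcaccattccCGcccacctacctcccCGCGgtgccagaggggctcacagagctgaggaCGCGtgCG
The Acan window holds 31 CG dinucleotides and is 74.0% G or C, the Matn3 window holds 15 at 62.7%, the Hapln1 window 3 at 54.3% and the Cnmd window 1 at 56.0%. Over all 32851 windows of the table the median is 7 CG dinucleotides and 52.7% G or C. Among the 4 genes shown, CG-rich Matn3 was low and CG-poor Hapln1 high in tdTomato+ DMSO cells, while CG-rich Acan was high and CG-poor Cnmd low. A link between CG content and level was not tested. Searched on both strands, the SOX core letters AACAAT and ACAAAG, the full cyclic AMP response element TGACGTCA and the TATA box letters TATAAA were in 0 of the 7 windows, against 10.7%, 18.7%, 1.8% and 13.6% of all windows in the table. The shorter form TGACG, which the full element contains, was in 1 of 7, against 20.8% of all windows. It lay on the plus strand of Hapln1 at base 29 after the start in RefSeq's table. Such a match describes letters only, and its absence from these windows says nothing of the factors.

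In eGFP+ cells the cartilage matrix genes were present at widely different levels per length. Hapln1 stood highest at 59.7 ± 29.8 CPM per kilobase (SD, n = 4), followed by Comp at 37.4 ± 21.9 and Acan at 36.5 ± 16.9. Snorc (14.2 ± 15.8), Matn4 (13.3 ± 5.996) and Cnmd (11.6 ± 9.87) came next, then Matn3 at 2.13 ± 2.04 and Matn1 at 0.159 ± 0.168. The ranges of neighbours in this order overlapped over the 4 libraries. Within a library, Hapln1 was above Comp, Cnmd above Matn3 and Matn3 above Matn1 in all 4, while the other neighbours kept this order in 1 to 3 of them. In tdTomato+ DMSO cells Acan (25.1 ± 20.3 CPM per kilobase, SD, n = 3), Hapln1 (19.6 ± 0.684), Comp (10.6 ± 9.30) and Matn4 (7.38 ± 3.61) overlapped one after the other. Below them, with no overlap to Matn4, lay Snorc, Cnmd, Matn1 and Matn3 at means of 0.106 to 0.569 CPM per kilobase. In tdTomato+ Fsk cells Matn4 (9.57 ± 3.94 CPM per kilobase, SD, n = 3), Acan (8.88 ± 2.92) and Hapln1 (5.84 ± 2.58) came first and overlapped. Comp followed at 0.786 ± 0.278, apart from its neighbours on both sides, then Cnmd and Matn3, and then Matn1 and Snorc, again with a gap.

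Summed over the 8 genes, the level was 114 to 253 CPM per kilobase in the eGFP+ libraries, 51.8 to 81.5 in the tdTomato+ DMSO libraries and 21.8 to 33.3 in the Fsk libraries, with no overlap between groups. The make-up of that sum differed as well. Matn4 made 3.79% to 11.4% of it in eGFP+ cells and 31.9% to 42.5% in Fsk cells, while Comp made 11.1% to 28.7% and 1.41% to 4.34%. These are shares of transcript per length, and in sorted bulk samples fewer cells of a type and less RNA per cell cannot be told apart.

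**Figure D1:**
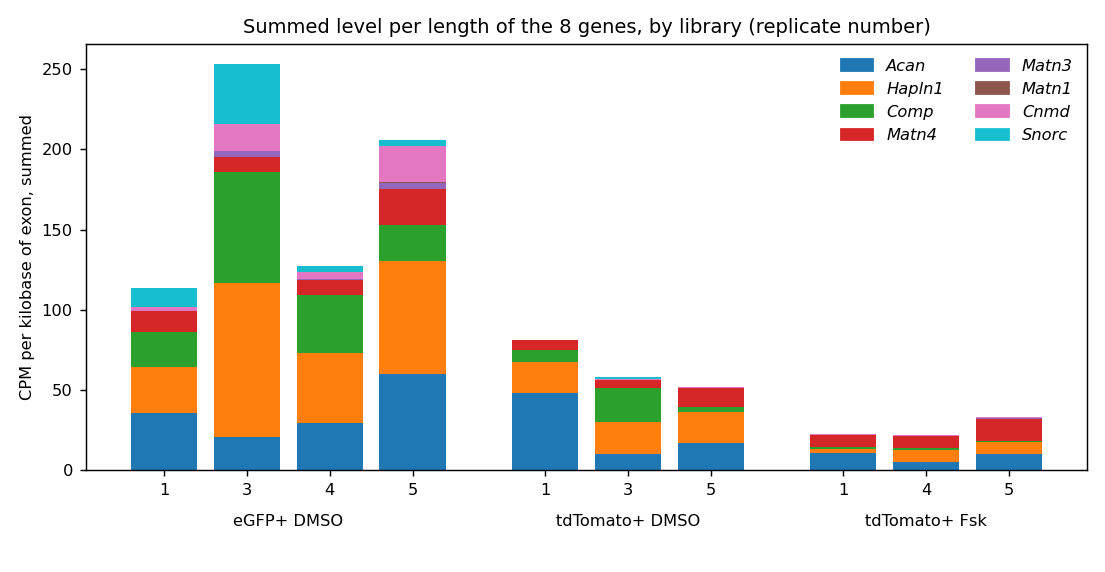
Stacked bars of CPM per kilobase of exon for the 8 genes, 1 bar per library with its replicate number under it and the 3 groups side by side. The eGFP+ bars reach 114 to 253, the tdTomato+ DMSO bars 51.8 to 81.5 and the Fsk bars 21.8 to 33.3, and Comp, Cnmd and Snorc are thin or not visible in the Fsk bars.

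Acan (ENSMUSG00000030607, chromosome 7, 79053483 to 79115099 on the plus strand of GRCm38) encodes the aggrecan core protein. In the eGFP+ libraries numbered 1, 3, 4 and 5 it stood at 267.9, 154.5, 219.8 and 448 CPM, in the tdTomato+ DMSO libraries numbered 1, 3 and 5 at 359.8, 74.1 and 127.8, and in the Fsk libraries numbered 1, 4 and 5 at 80.3, 41.2 and 77.4. The DMSO groups overlapped widely, because tdTomato+ library 1 lay above 3 of the 4 eGFP+ libraries. The Fsk libraries lay below all eGFP+ libraries and overlapped the tdTomato+ DMSO group at its lowest library.

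Hapln1 (ENSMUSG00000021613, chromosome 13, 89539796 to 89611652, plus strand), the link protein gene, stepped down over the groups. Its eGFP+ libraries held 169.7, 568, 257 and 415 CPM, its tdTomato+ DMSO libraries 114, 121 and 113.5, and its Fsk libraries 16.9, 43.7 and 42.8. All 3 groups were apart from each other, in the order eGFP+, tdTomato+ DMSO, tdTomato+ Fsk. The tdTomato+ DMSO libraries differed little among themselves, with an SD of 4.04 CPM against 175.9 in the eGFP+ group.

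Comp (ENSMUSG00000031849, chromosome 8, 70373558 to 70382066, plus strand) encodes a pentameric thrombospondin-family protein of cartilage and tendon. It stood at 63.9, 203.7, 108 and 67.8 CPM in the eGFP+ libraries, at 22.8, 62.4 and 9.38 in the tdTomato+ DMSO libraries, and at 2.91, 2.70 and 1.39 in the Fsk libraries. The 3 groups did not overlap, though tdTomato+ DMSO library 3 came close to the lowest eGFP+ library. Number 3 was the highest library of both DMSO groups.

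Matn4 (ENSMUSG00000016995, chromosome 2, 164389393 to 164405160, minus strand) and Matn3 (ENSMUSG00000020583, chromosome 12, 8947929 to 8972028, plus strand) are matrilin genes, Matn4 being expressed in many tissues and Matn3 mainly in cartilage. Matn4 stood at 66.95, 49.6, 46.1 and 113.5 CPM in eGFP+ cells, at 30.1, 24.8 and 59.5 in tdTomato+ DMSO cells, and at 37.3, 38.2 and 73.1 in Fsk cells. The 3 groups of Matn4 overlapped, and number 5 was the highest library in each. Matn3 stood at 0.827, 10.6, 1.49 and 12.7 CPM in eGFP+ cells, at 0.104, 0.259 and 0.599 in tdTomato+ DMSO cells, and at 0.606, 0.675 and 1.93 in Fsk cells. Its eGFP+ libraries therefore fell into a low pair, numbers 1 and 4, and a high pair, numbers 3 and 5, and the low pair reached the Fsk range. Exons of Matn4 overlap 149 exon bases of Rbpjl on the other strand, 2.88% of its own, and Rbpjl had 366 reads in all libraries together.

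Matn1 (ENSMUSG00000040533, chromosome 4, 130944385 to 130955475, plus strand), the matrilin gene long used as a marker of mature chondrocytes, was barely detected. The eGFP+ libraries held 0, 11, 4 and 5 reads, the tdTomato+ DMSO libraries 0, 10 and 6, and the Fsk libraries 2, 1 and 1. The summed reads gave an eGFP+ to tdTomato+ DMSO ratio of 1.21 with a 95% counting interval of 0.593 to 2.49, so no difference between the DMSO groups was detectable at this depth. The tdTomato+ DMSO to Fsk ratio was 3.43 (1.11 to 14.1) and the eGFP+ to Fsk ratio 4.13 (1.38 to 16.6), both resting on 4 Fsk reads. Too few reads kept Matn1 out of the test over all genes, and counting intervals cover counting error only.

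Cnmd (ENSMUSG00000022025, chromosome 14, 79637690 to 79662170, minus strand) had few reads outside the eGFP+ cells. The eGFP+ libraries held 57, 426, 152 and 818 reads, or 3.93, 30.6, 8.39 and 42.2 CPM. The tdTomato+ libraries held 6, 16 and 21 reads with DMSO and 14, 12 and 14 with Fsk, between 0.313 and 0.849 CPM in all 6. The eGFP+ group was thus apart from both tdTomato+ groups, while numbers 3 and 5 carried most of its signal, as they did for Matn3.

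Snorc (ENSMUSG00000026258, chromosome 1, 87470271 to 87475482, plus strand) had 128, 374, 50 and 52 reads in eGFP+ cells, 5, 18 and 1 in tdTomato+ DMSO cells, and 1, 0 and 0 in Fsk cells. The corresponding eGFP+ levels were 8.82, 26.9, 2.76 and 2.68 CPM, and the tdTomato+ DMSO levels 0.261, 0.931 and 0.0399. The eGFP+ libraries lay above all others, and unlike Cnmd and Matn3 the gene was low in eGFP+ library 5. From the summed reads the eGFP+ to tdTomato+ DMSO ratio was 24.3 (95% counting interval 16.2 to 38.2) and the tdTomato+ DMSO to Fsk ratio 20.6 (3.35 to 846), the latter resting on a single Fsk read.

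**Figure D2:**
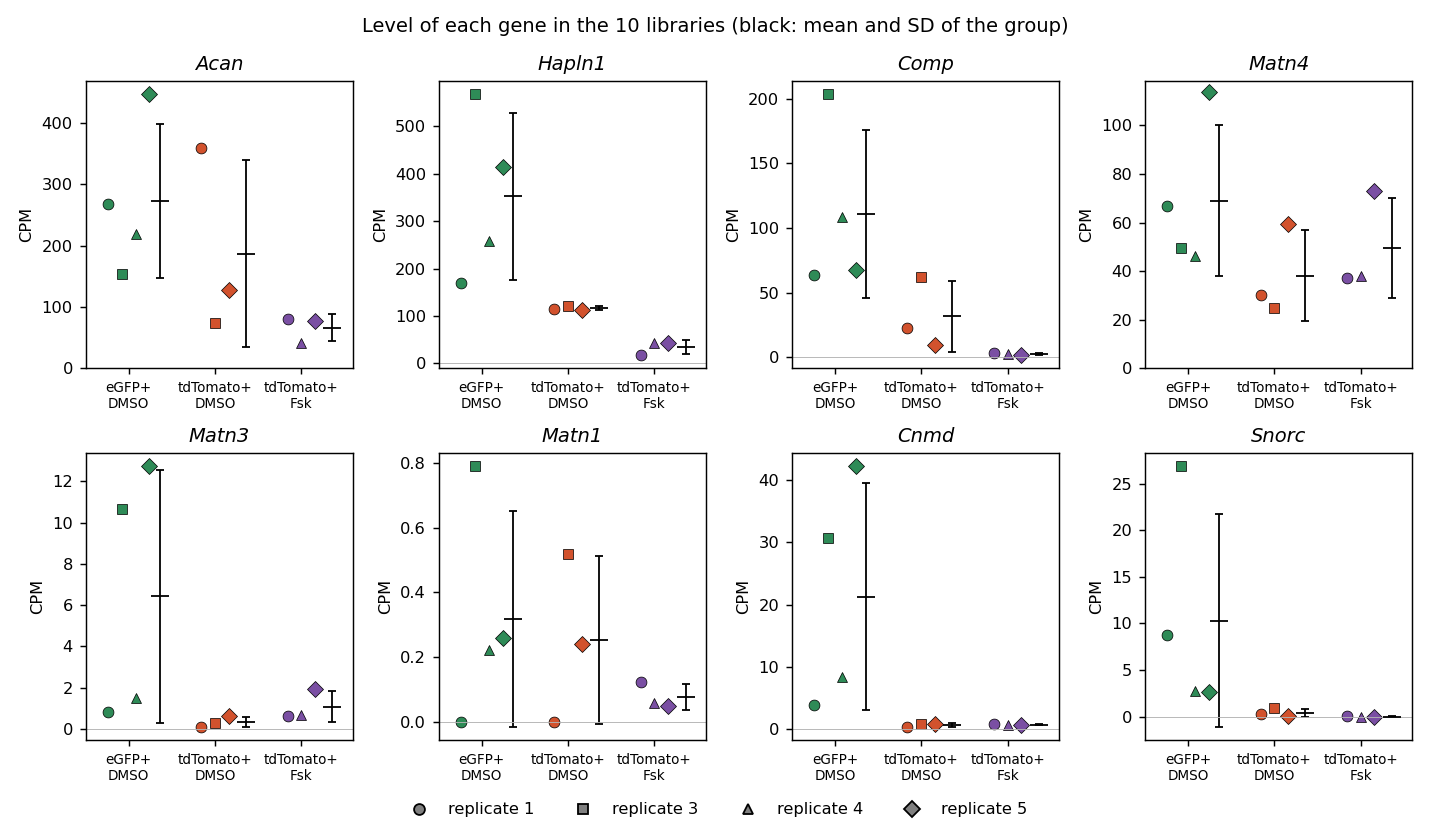
CPM of each of the 8 genes in the 10 libraries, 1 panel per gene with its own linear axis. Points are libraries, their shape gives the replicate number, and black marks give the mean and SD of the group. Comp and Hapln1 step down over the 3 groups without overlap, Cnmd and Snorc are near the axis in both tdTomato+ groups, and Matn4 overlaps throughout.

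The first comparison set tdTomato+ against eGFP+ cells, both with DMSO, to ask whether these matrix genes differ by reporter. All 7 tested genes were lower on average in tdTomato+ cells, from Acan and Matn4, whose intervals without the block reach 0, to Cnmd, Snorc and Matn3, with log2 fold changes between -4.99 and -4.27. In 5 of the 7 (Comp, Hapln1, Matn3, Cnmd and Snorc) every tdTomato+ library lay below every eGFP+ library, which held for 1.15% of all 16169 genes tested. Of these 5, Matn3, Cnmd and Snorc reached the filter's level of 0.540 CPM in all 4 eGFP+ libraries but in 1, 2 and 1 of the 3 tdTomato+ DMSO libraries. They were therefore tested through the group where they are high, and the counts over the 7 genes are descriptions. The 4 genes at that level in every library of both groups (Acan, Comp, Matn4 and Hapln1) had a median log2 fold change of -1.23, against 0.02 over all genes tested.

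By edgeR's quasi-likelihood test with Benjamini-Hochberg adjustment over all genes, 0 of the 7 passed at an adjusted p below 0.05, and 0% of all genes were called lower. At an unadjusted p below 0.05 there were 5 of the 7 genes and 221 of all genes. DESeq2 called 13 genes, Cnmd, Matn3 and Snorc among them, and limma-voom called 0. The estimates without the block were -0.54 (SE 0.52) for Acan, -1.60 (SE 0.45) for Hapln1, -1.82 (SE 0.59) for Comp and -0.86 (SE 0.42) for Matn4 on the log2 scale, each with an adjusted p of 1. The 95% interval ran from -1.66 to 0.57 for Acan and from -1.76 to 0.05 for Matn4. Cnmd had -4.99 (SE 0.82), the smallest p of all genes tested at an adjusted p of 0.339, while Snorc had -4.65 (SE 1.11) and Matn3 -4.27 (SE 1.06), both at 1.

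Same-numbered DMSO libraries deviated alike from their group means over all genes, so the pairs were also read number by number. Comp was 2.81, 3.26 and 7.23 times as high in the eGFP+ as in the tdTomato+ library of numbers 1, 3 and 5, and Matn4 2.22, 1.997 and 1.91 times. The Matn4 ratios were the tightest of the 7 genes although its levels overlapped between the groups. Hapln1 gave 1.49, 4.71 and 3.65, and Acan 0.745, 2.08 and 3.50, so that Acan was the single gene with a pair in the other direction. For the sparse genes the ratios were 7.93, 41.1 and 21.3 for Matn3, 12.6, 37.0 and 50.3 for Cnmd, and 33.8, 28.9 and 67.2 for Snorc.

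With the replicate number as a block, edgeR called 4 of the 7 genes lower in tdTomato+ cells, where 14 of all genes (0.0866%) were called lower. The log2 values were -5.11 for Snorc (SE 0.53, adjusted p = 0.00283), and then Cnmd had -4.97 (SE 0.61, adjusted p = 0.0101), Comp -2.06 (SE 0.30, adjusted p = 0.0191) and Matn3 -4.30 (SE 0.65, adjusted p = 0.0296). Hapln1 (-1.42, SE 0.34, adjusted p = 0.451), Matn4 (-0.98, SE 0.22, adjusted p = 0.333) and Acan (-0.81, SE 0.35, adjusted p = 0.835) did not pass edgeR's test. With the block all 7 intervals lay below 0, that of Acan running from -1.58 to -0.04 and that of Matn4 from -1.46 to -0.50, and all 7 genes had an unadjusted p below 0.05, as had 773 of all genes. Over all alternatives the adjusted p ranged from 6.2e-06 to 1 for Snorc, 5.2e-11 to 1 for Cnmd, 0.000806 to 1 for Comp and 0.000362 to 1 for Matn3. These blocked calls depended on single libraries: 0 of the 7 genes passed without eGFP+ replicate 3, tdTomato+ replicate 1 or tdTomato+ replicate 5, Snorc alone passed without tdTomato+ replicate 3, and Matn3 was lost without eGFP+ replicate 5. Over all genes, the blocked count of 14 fell to 1, 3, 2 and 2 without eGFP+ replicate 3 or tdTomato+ replicate 1, 3 or 5.

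**Figure D3:**
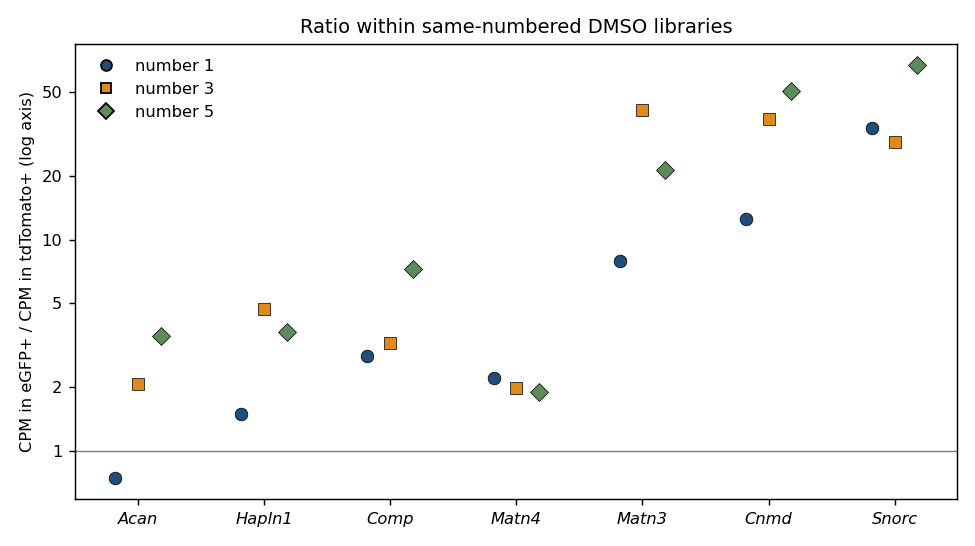
Ratio of the eGFP+ to the tdTomato+ library of the same replicate number in DMSO, on a log axis, for the 7 tested genes. Each gene has 3 points, numbers 1, 3 and 5, and the line marks a ratio of 1. Acan number 1, at 0.745, is the only point under the line, the Matn4 points lie between 1.91 and 2.22, and the Cnmd, Matn3 and Snorc points lie between 7.93 and 67.2.

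Markers of other cell types were counted beside this comparison. Notochord, which itself makes cartilage-type matrix, and epithelium have 10 listed markers, of which 7 were tested, and all 7 had negative values between the DMSO groups, with a median log2 fold change of -2.27. Their summed level ran from 28.5 to 183 CPM in eGFP+, from 5.27 to 40.8 in tdTomato+ DMSO and from 8.57 to 77.7 in Fsk libraries. In that list the keratin genes Krt8 and Krt18, its most abundant over all 10 libraries, had -1.88 (SE 1.10) and -2.27 (SE 1.02). T, the brachyury gene of notochord and early mesoderm, had -2.54 (SE 0.78) without the block and fell by 3.02 on the log2 scale with it (SE 0.41, adjusted p = 0.015). Noto, a notochord gene, was near 0 throughout, with 0, 6 and 5 reads in all eGFP+, tdTomato+ DMSO and Fsk libraries. Shh, which notochord secretes, had 68, 13 and 3 reads in the same groups, of which 1 library of each group held 51, 13 and 3. Between the DMSO groups Shh had a log2 value of -2.34 (SE 1.64) without the block and -3.43 (SE 1.42, edgeR adjusted p = 0.835) with it. The part of these cells in the matrix gene differences was not tested. Marker sums of muscle (9.65 to 64.95 CPM in eGFP+ and 13.1 to 23.0 in tdTomato+ DMSO), neural (33.5 to 75.8 and 40.7 to 58.1), endothelial and blood (26.9 to 133.6 and 33.3 to 116.5), adipocyte (32.0 to 175 and 37.0 to 198) and pluripotent cells (0.138 to 1.496 and 0.677 to 1.56) overlapped between the DMSO groups, as did those of tendon (656 to 2277 and 749.6 to 2059). Without the block none of their tested genes passed edgeR's test or had an unadjusted p below 0.05, and with it 0 tendon markers passed and 2 had an unadjusted p below 0.05. Of the most abundant of them, some had log2 values near 0 (Egr1 0.05, SE 0.605, Nes 0.02, SE 0.53, Map2 -0.01, SE 0.68, Cd68 -0.10, SE 0.55, Fabp4 -0.01, SE 0.73, and Cebpa 0.12, SE 0.31). Others lay further from 0 (Tnnt2 -1.004, SE 1.11, Ttn 0.48, SE 0.87, Pecam1 0.28, SE 1.05, Nanog 0.40, SE 1.02, and Fmod -0.77, SE 0.56). With these errors, changes of either sign remain possible in both sets.

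Fsk against DMSO within tdTomato+ cells shows how these genes stood after treatment in cells of 1 reporter. Of the 7 tested genes 1 passed, Comp, which fell by 3.76 on the log2 scale (SE 0.68, edgeR adjusted p = 0.0269), from 31.5 ± 27.6 to 2.33 ± 0.825 CPM (SD, n = 3 each). Of all genes tested, 0.272% were called lower. Hapln1 also had every Fsk library below every DMSO library, with -1.75 (SE 0.47), but an edgeR adjusted p of 0.137. It passed in 5 of 17 alternatives, among them the replicate block (-1.76, SE 0.39, adjusted p = 0.0301) and DESeq2 (adjusted p = 0.0137), and over all 17 the adjusted p ranged from 4.1e-05 to 0.337. That non-overlap, which 7.98% of all genes showed, was met by 2 of the 7 genes. The reverse, every Fsk library above every DMSO library, was met by Matn3 and by 9.01% of all genes, at 1.70 (SE 1.02, adjusted p = 0.629) from 61 against 22 summed reads.

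The other genes did not pass edgeR's test. Acan had -1.498 on the log2 scale (SE 0.56, adjusted p = 0.329), and without tdTomato+ DMSO replicate 1, its highest library, -0.60. Snorc had -4.01 (SE 1.58, adjusted p = 0.367), a value that depends on the prior count because the Fsk group held 1 read. It reached the filter's level in 1 of the 6 tdTomato+ libraries and was tested here through the eGFP+ libraries alone. Matn4 had 0.38 (95% interval -0.57 to 1.32) and Cnmd 0.15 (-1.54 to 1.84), intervals that leave changes of either sign. The median of the 7 was -1.498 and that of the 6 without Snorc -0.67, against -0.03 over all genes tested. In the pairs that share a number, 1 and 5, Comp was 7.83 and 6.77 times as high with DMSO as with Fsk, Hapln1 6.75 and 2.65 times, Acan 4.48 and 1.65 times and Matn4 0.807 and 0.815 times.

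The Comp call did not survive each omission of a library. Its log2 fold change was -2.79 (adjusted p = 0.086) without tdTomato+ DMSO replicate 3, -3.94 (0.111) without Fsk replicate 1, -3.87 (0.0934) without Fsk replicate 4 and -3.47 (0.145) without Fsk replicate 5, and limma-voom gave -3.40 (0.12). It passed in the other 12 of 17 alternatives, and over all 17 the adjusted p ranged from 5.6e-13 to 0.145. The marker sums of endothelial and blood cells (8.27 to 28.7 CPM with Fsk), muscle (4.05 to 9.09) and neural cells (14.7 to 40.4) lay below their tdTomato+ DMSO ranges given above, while those of tendon (944 to 1353) and adipocytes (111.5 to 302) overlapped them. Egr1 was the most abundant tendon marker, at 692 CPM on average with DMSO and 518 with Fsk. Scx was higher in every Fsk library (323 to 480 CPM) than in every DMSO library (100.5 to 228.5). It had 1.24 on the log2 scale (SE 0.43, edgeR adjusted p = 0.279). Mkx did not overlap either, at 20.55 to 25.4 CPM with Fsk and 8.59 to 18.7 with DMSO. Of the 7 tested tendon markers 3 had positive and 4 negative values. The lower sums came from few abundant genes. Cd68 averaged 68.4 CPM with DMSO and 15.3 with Fsk, Tnnt2 10.04 and 0.975, and Nes 27.8 and 10.6. Ttn (5.54 and 2.06 CPM) and Map2 (19.4 and 12.2) also averaged lower with Fsk. Tnnt2 overlapped between the 2 groups, at 0.998 to 21.1 CPM with DMSO and 0.198 to 1.94 with Fsk. Some scarcer markers of the same lists were higher on average with Fsk, such as Cdh5 (0.168 and 2.14 CPM), Actc1 (0.190 and 1.64) and Sox2 (0.213 and 1.11). For each, 1 Fsk library held most of the Fsk reads: 95 of 107 for Cdh5, 54 of 86 for Actc1 and 51 of 56 for Sox2. Elavl3, a scarce neural marker, averaged lower with Fsk (1.635 and 0.6655 CPM), but 1 DMSO library held 74 of its 101 DMSO reads. Its log2 value was -1.30 (SE 1.61) without the block and 2.24 (SE 1.87) with it. The part of these cell types in the Comp difference was not tested.

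The tdTomato+ Fsk cells were last set against eGFP+ DMSO cells, the ends of the order seen in Hapln1 and Comp. This comparison shares its libraries with the other 2 and is not independent of them. Fold changes were negative for all 7 genes, with a median log2 value of -2.96 in the 6 genes at the filter's level in every library of both groups, all but Snorc, against -0.01 over all genes tested. By edgeR 4 genes were lower in Fsk cells, where 0.717% of all genes were called lower. On the log2 scale Comp had -5.57 (SE 0.73, adjusted p = 0.00424), Hapln1 -3.35 (SE 0.49, adjusted p = 0.00743), Cnmd -4.84 (SE 0.82, adjusted p = 0.0134) and Snorc -8.66 (SE 1.51, adjusted p = 0.0153). The Snorc value rests on 604 reads against 1, a ratio of 499 with a 95% counting interval of 89.2 to 19740. In 5 genes, these 4 and Acan, every Fsk library lay below every eGFP+ library, as for 5.16% of all genes. Snorc reached the filter's level in 4 of 4 eGFP+ libraries but in 0 of 3 Fsk libraries. It was therefore tested through the group where it is high, and both counts that include it are descriptions. Acan had -2.04 (SE 0.55, adjusted p = 0.0996), Matn3 -2.57 (SE 0.96, adjusted p = 0.275) and Matn4 -0.48 (SE 0.42, adjusted p = 0.744), and these 3 did not pass edgeR's test. Of the 7 tested notochord and epithelial markers 6 had negative values here and 1 passed. That was T, at -5.69 (SE 0.94, edgeR adjusted p = 0.0118). The part of such cells in these differences was not tested.

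Comp and Hapln1 passed in each of the 17 alternatives run for this comparison, with adjusted p from 1.0e-26 to 0.0275 for Comp and from 1.3e-11 to 0.0352 for Hapln1. The calls of Cnmd and Snorc were lost by limma-voom (adjusted p = 0.11 and 0.0886) and without any 1 of the 3 Fsk libraries, numbered 1, 4 and 5 (0.0779, 0.0622 and 0.0782 for Cnmd and 0.091, 0.068 and 0.0836 for Snorc).

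**Figure D4:**
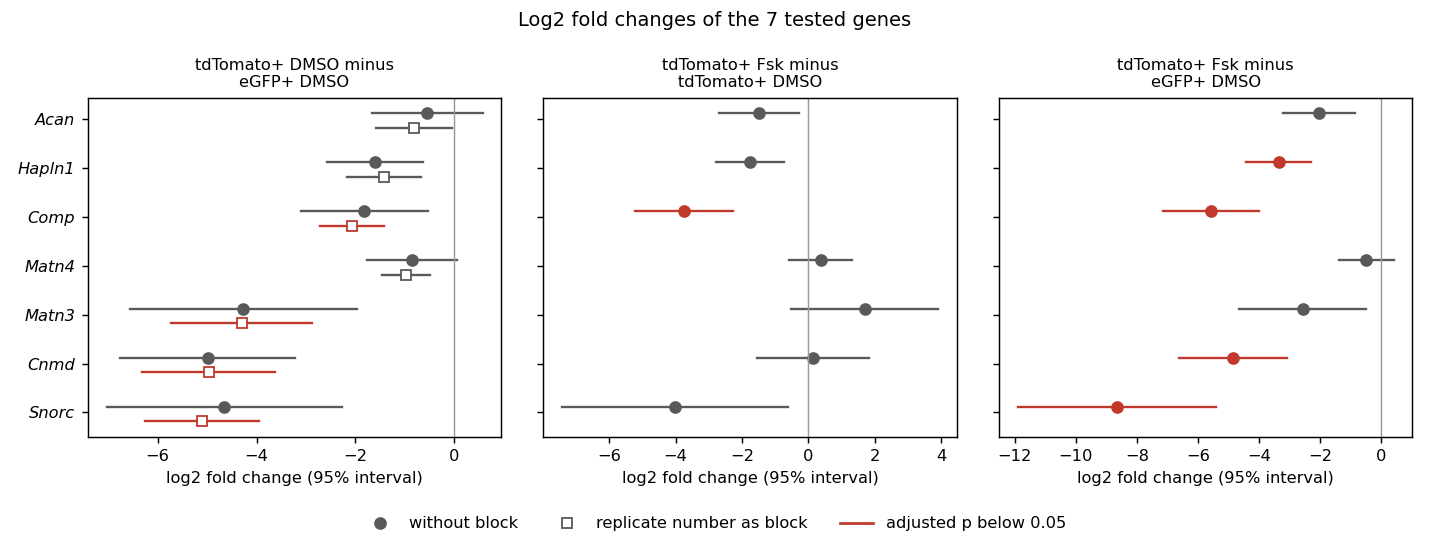
Log2 fold changes of the 7 tested genes in the 3 comparisons, with 95% intervals from edgeR's fit, and in the first comparison also with the replicate number as a block (open squares). Red marks an adjusted p below 0.05: 4 genes with the block in the first comparison and 0 without it, Comp in the second, and Hapln1, Comp, Cnmd and Snorc in the third. The 3 panels have separate horizontal scales.

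The members' closest patterns over the 10 libraries were measured as the root mean square difference of centred log2 CPM, where 0 is an identical pattern. Comp was closest to Car3 (0.58), Col2a1 (0.67) and Sostdc1 (0.71), among genes of at least 5 CPM on average. Hapln1 was closest to St3gal6 (0.31), Sema3d (0.68) and Kcnq5 (0.70), and Acan to Sdk2 (0.46), D630045J12Rik (0.55) and Mef2c (0.56). Cnmd came closest to Col11a2 (0.85), Col9a1 (1.12) and Colgalt2 (1.22), and Matn4, whose levels vary least, to Thoc2l (0.33), Cep41 (0.36) and 5031425E22Rik (0.38). Small differences come easily to a gene that varies little, so these values rank genes for 1 member and do not compare members. Among the members themselves Acan and Matn4 differed by 0.98 and Acan and Hapln1 by 1.11, while Comp and Matn4, the least alike of the 5 members with this measure, differed by 2.43.

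**Figure D5:**
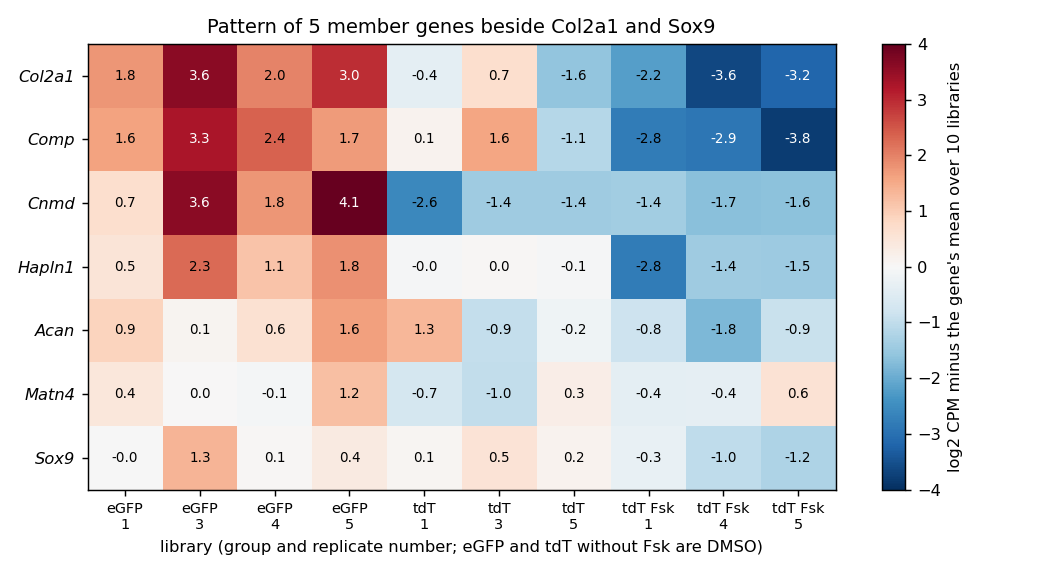
Log2 CPM minus each gene's mean over the 10 libraries for Comp, Cnmd, Hapln1, Acan and Matn4 beside Col2a1 and Sox9, coloured from -4 to 4. Comp and Col2a1 are high in all eGFP+ libraries and lowest with Fsk, Hapln1 is near its mean in tdTomato+ DMSO libraries, and Matn4 and Sox9 vary less than Comp.

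The regulators and the rest of the cartilage matrix were read from the same fits. Sox9, the transcription factor that activates Acan, Comp, Hapln1 and Col2a1 in chondrocytes, averaged 193 ± 96.5 CPM among the eGFP+ libraries (SD, n = 4), 159 ± 28.0 in tdTomato+ DMSO cells and 76.5 ± 27.2 in Fsk cells (SD, n = 3 each). It had log2 fold changes of -0.28 (SE 0.38) between the DMSO groups and -1.05 (SE 0.41) with Fsk, with edgeR adjusted p of 1 and 0.359. Its partners Sox5 and Sox6 had -0.17 (SE 0.34) and -0.51 (SE 0.59) between the DMSO groups and 0.14 (SE 0.36) and -0.26 (SE 0.63) with Fsk. None of the 3 passed edgeR's test in any comparison, and the unadjusted p was below 0.05 for 0 of them between the DMSO groups and for 1 in each comparison with Fsk cells.

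Of 6 cartilage collagen genes, all had negative fold changes between the DMSO groups, with a median log2 value of -2.06, and 0 passed edgeR's test without the block, with 5 at an unadjusted p below 0.05. Col11a1, the most abundant of them, had -0.81 (SE 0.48). With the block 3 passed, all lower: Col11a2, a collagen XI chain, at -2.99 (SE 0.30), Col9a1, a collagen IX chain, at -3.10 (SE 0.39), and Col2a1, the reporter's own gene, at -3.36 (SE 0.46), with adjusted p from 0.00283 to 0.0168. Fsk against DMSO gave a median of -0.90 and 0 calls without the block (2 genes at an unadjusted p below 0.05). With the block the median was -0.39 and 2 genes passed in opposite directions, Col2a1 at -1.91 (adjusted p = 0.0496) and Col9a3, a collagen IX chain, at 1.32 (adjusted p = 0.0207). Col9a3 averaged 190.1 CPM with DMSO and 399.8 with Fsk and had 1.07 (SE 0.58, adjusted p = 0.57) without the block. Fsk tdTomato+ against eGFP+ cells gave -2.93 and 2 calls lower, Col2a1 at -5.64 (SE 0.76, adjusted p = 0.00473) and Col11a2 at -4.04 (SE 0.59, adjusted p = 0.00743).

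Of 12 paralogs of the 8 genes 10 were tested. Between the DMSO groups 6 had positive and 4 negative values, with a median log2 fold change of 0.19, and 0 passed edgeR's test with or without the block (0 and 1 at an unadjusted p below 0.05). Vcan, the gene of versican, the hyaluronan-binding relative of aggrecan in loose connective tissue, averaged 79.2 ± 42.7 CPM among the eGFP+ libraries (SD, n = 4), 107 ± 42.4 in tdTomato+ DMSO cells and 353 ± 78.4 in Fsk cells (SD, n = 3 each). It rose between eGFP+ and Fsk cells by 2.16 on the log2 scale (SE 0.48, edgeR adjusted p = 0.0454), opposite in sign to Acan, and had 1.72 (SE 0.52, adjusted p = 0.195) with Fsk in tdTomato+ cells. Thbs2, a thrombospondin and relative of Comp, averaged 867 ± 303.6 and 939.9 ± 241 CPM in the eGFP+ and tdTomato+ DMSO groups (SD, n = 4 and 3) and 155 ± 50.5 with Fsk (SD, n = 3). With Fsk it was lower, at -2.601 on the log2 scale (SE 0.46, edgeR adjusted p = 0.0236), and at -2.48 (SE 0.44, adjusted p = 0.0161) against eGFP+ cells.

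The remaining relatives did not pass edgeR's test without the block in any of the 3 comparisons. Of the thrombospondins, Thbs1 had log2 fold changes of -0.27 between the DMSO groups and -2.26 with Fsk (SE 0.72 and 0.80), Thbs3 -0.11 and 0.11 (SE 0.48 and 0.51), and Thbs4 1.18 and -0.77 (SE 0.71 and 0.77). With the block Thbs1 passed as lower with Fsk, at -1.66 (SE 0.40, adjusted p = 0.0446). Against eGFP+ cells it was also called lower with the block, at -1.89 (SE 0.37, adjusted p = 0.0112). Matn2, the matrilin of many connective tissues, had 0.43 and 0.45 (SE 0.46 and 0.50). Tnmd, the tendon relative of Cnmd, had -0.55 and 0.03 (SE 0.69 and 0.73), with 31.4 ± 25.7 CPM on average among eGFP+ libraries (SD, n = 4) and 21.5 ± 18.8 and 21.9 ± 6.38 in tdTomato+ DMSO and Fsk cells (SD, n = 3 each). The other link protein and lectican genes were scarce: Hapln3 (1.31, 1.57 and 0.644 CPM on average in eGFP+, tdTomato+ DMSO and Fsk cells), Hapln4 (0.766, 1.18 and 0.905) and Ncan (0.275, 0.215 and 1.81), with Hapln2 and Bcan too low to test.

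Genes of hyaluronan, the chain to which aggrecan and link protein bind, gave 0 edgeR calls of 8 between the DMSO groups, also with 0 at an unadjusted p below 0.05 (median 0.32). Cd44, a hyaluronan receptor, had -0.07 (SE 0.54) and Cemip2, a hyaluronidase of the cell surface, 0.31 (SE 0.35). Cemip, which promotes hyaluronan breakdown, fell with Fsk from 7.55 ± 2.29 to 0.637 ± 0.236 CPM (SD, n = 3 each), at -3.56 on the log2 scale (SE 0.54, edgeR adjusted p = 0.0118). Against eGFP+ cells it had -3.23 (SE 0.52, adjusted p = 0.00916). The main hyaluronan synthase gene of mesenchyme, Has2, had 0.02 (SE 0.40) and -0.23 (SE 0.43) in the comparisons of reporter and of treatment. Has3, another synthase gene, averaged 1.10, 1.89 and 6.145 CPM in eGFP+, tdTomato+ DMSO and Fsk cells. It passed edgeR's test only with the replicate block. There it was higher with Fsk, at 2.25 (SE 0.53, adjusted p = 0.0417), and against eGFP+ cells, at 2.92 (SE 0.48, adjusted p = 0.00433).

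Of 12 other secreted genes of cartilage 11 were tested, with medians of -1.81 between the DMSO groups, 0.22 with Fsk and -1.49 between Fsk and eGFP+ cells. In the last of these Chad, which encodes chondroadherin, was lower, at -4.74 on the log2 scale (SE 0.73, edgeR adjusted p = 0.00885), as was Cilp2, of the cartilage intermediate layer, at -3.83 (SE 0.80, adjusted p = 0.0331). With the replicate block Ucma, a secreted protein of growth-zone chondrocytes, was lower between the DMSO groups, at -5.33 (SE 0.41, adjusted p = 0.000322), and so was Scrg1, a secreted protein of maturing chondrocytes, at -3.44 (SE 0.44, adjusted p = 0.0109). Ucma averaged 25.4 ± 30.2 CPM among eGFP+ libraries (SD, n = 4), 0.712 ± 0.751 in tdTomato+ DMSO and 13.9 ± 10.4 in Fsk cells (SD, n = 3 each), and Scrg1 at 14.0 ± 5.75, 1.39 ± 0.728 and 8.57 ± 6.21. Both were thus higher on average with Fsk than with DMSO, where Comp, Hapln1 and Acan were lower, although neither passed edgeR's test there without the block (4.29, SE 1.18, adjusted p = 0.146, and 2.61, SE 0.65, adjusted p = 0.105). With the block both passed and were higher with Fsk, Ucma at 5.99 (SE 0.44, adjusted p = 0.000204) and Scrg1 at 2.65 (SE 0.47, adjusted p = 0.0108). Chad and Cilp2 passed as well in that blocked comparison, in the other direction. They were lower with Fsk, at -2.31 (SE 0.45, adjusted p = 0.0151) and -3.11 (SE 0.59, adjusted p = 0.0141).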

How the data were processed

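The authors deposited 1 table of raw read counts per gene for the 10 libraries, and these whole-number counts were used as deposited. Trizol was used for extraction, per the labels, and mm10 is the build named in the submitters' processing notes. How reads were aligned, assigned to genes and treated by strand is not given in the sources used here. Gene lengths were planned from the table, which has no length column, so exon lengths and coordinates come from GENCODE M21 (GRCm38), matched by gene identifier for 91.9% of the table's genes.

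Genes kept by filterByExpr (16169 of 56748, 7 of the 8 described) were scaled by TMM and fitted with edgeR 4.0.16 in R 4.3.3 (glmQLFit, robust, group as the only term, all 10 libraries, 7 residual degrees of freedom, or 4 with the replicate block). Tests were glmQLFTest with Benjamini-Hochberg adjustment over all genes at 0.05. A standard error is the fold change divided by the root of F. Centred log2 CPM used a prior count of 2. Counting intervals are 95% and cover counting error only.

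The replicate numbers were checked for pairing on deviations from group means. Same-numbered DMSO pairs had r = 0.63, 0.492 and 0.649 over genes, each above the bound of 0.1, so blocked values stand beside that comparison. This pairing is read from the data; what a number marks is not stated. With Fsk libraries, same-numbered pairs went down to 0.0703 or numbered only 2, and the block is an alternative. Libraries differed by more than sampling noise (lowest chi-square per degree of freedom 86.1).

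Alternatives were DESeq2 1.42.0, limma-voom (limma 3.58.1), RLE and upper quartile scaling, other filters on low counts, subsets of libraries and leave-outs. The steps were tested on simulated data. The genes, lists and tests were chosen with earlier results of these data known. Named were the 8 genes, both reporter genes, the SOX trio, the paralogs, the called members of each list (or its 2 most abundant members where none passed), and the 3 most alike genes per member of at least 5 CPM. Has2, Noto, Shh, Cdh5, Actc1, Sox2, Elavl3, Myog, Myh3, Pax6, Scx and Mkx were named after their values were seen. So were Cd68, Tnnt2, Ttn, Nes, Map2 and T for Fsk against DMSO. Medians over the genes at the filter's level in both groups, or without Snorc, were added after the values were seen.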

Additional observations from a re-analysis of the deposited data

How the results depend on the processing

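Settings changed how many genes passed more than they changed directions: of the recomputed fold changes of the 7 genes, 318 kept their direction and their side of the threshold, 29 gained a call, 13 lost one and 2 turned sign. In Fsk against DMSO tdTomato+ cells, Cnmd ranged from -0.16 to 0.37 on the log2 scale over the leave-one-out fits and was negative without DMSO replicate 1, and Matn4 ranged from -0.005 to 0.85 and was negative without Fsk replicate 5. Neither was called in any setting.

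For tdTomato+ against eGFP+ cells in DMSO, the counts of 0 genes and 0 of the 7 tested matrix genes became 13 and 3 with DESeq2, 18 and 4 with no filter on low counts, 14 and 4 with the replicate block, and 68 and 5 with the replicate block on the 3 same-numbered DMSO pairs alone. They stayed at 0 in each leave-one-out fit without the block. For Fsk against DMSO, the 92 genes became 566 with DESeq2, 462 with no filter, 260 with only the 2 groups compared, 508 with the replicate block, 50 without both libraries numbered 3, and 654 with the replicate block and only the 2 groups. Leaving out 1 library gave 22 to 75 genes. The 1 matrix gene became 2 with DESeq2, with only the 2 groups and with the replicate block, 3 with the block and only the 2 groups, 4 with no filter, 0 with limma-voom, and 0 to 1 in the leave-one-out fits, Hapln1 being a gained call in each of the first 5. For Fsk tdTomato+ against eGFP+ cells, the 220 genes became 798 with DESeq2, 800 with no filter and 820 with the replicate block, and 51 to 469 in the leave-one-out fits. The 4 matrix genes became 2 with limma-voom and 2 to 4 in the leave-one-out fits. They became 5 with DESeq2, only the 2 groups or the block, each adding Acan, and 6 with no filter, adding Acan and Matn3 (adjusted p = 0.0323); Acan had adjusted p from 0.000106 to 0.0398 in these 4 settings. The cause of these changes was not tested. RLE and upper quartile scaling, and leaving out ribosomal RNA and mitochondrial genes, changed no call of the 7 tested genes.

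Depth limited Matn1, Snorc and, outside the eGFP+ cells, Matn3 and Cnmd, which had at most 39 reads in a tdTomato+ library.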
